A study of Mus musculus with 6 samples.

Results

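The receptors described here are 8 G protein-coupled receptors through which hormones, nerves and metabolites set the tone of artery walls: the vasopressin receptor gene Avpr1a, the angiotensin receptor gene Agtr1a, the alpha-1 adrenoceptor genes Adra1a, Adra1b and Adra1d, the adenosine receptor gene Adora2b, the vasoactive intestinal peptide (VIP) receptor gene Vipr2 and the bile acid receptor gene Gpbar1. They were taken by symbol from the 21785 genes of the deposited table, as constrictor and dilator receptors for ligands other than serotonin, endothelin and prostanoids, and all 8 had a row. The set was selected on the normalised read counts of these same samples, with the difference between groups already known, so the difference between groups is given for each member as a description and supports nothing further. RNA was sequenced from pulmonary arterial smooth muscle cells (PASMCs) of the mouse, in 2 groups of 3 samples. The cells had grown out of minced lungs of C57BL/6 mice around iron particles lodged in the vessels. The stimulated group received bone morphogenetic protein 9 (BMP9, 1 ng/mL) together with BMP10 (5 ng/mL) for 6 h, and the control group received neither. All samples had spent 48 h in medium without supplements beforehand. The labels do not say how many animals or cultures the samples came from, so the spread between samples may be technical.

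Avpr1a, Agtr1a and the alpha-1 adrenoceptors couple mainly to the G proteins Gq and G11, which activate phospholipase C, release stored calcium and contract smooth muscle in response to vasopressin, angiotensin II and noradrenaline. Adora2b, Vipr2 and Gpbar1 couple mainly to Gs, which activates adenylyl cyclases, and the cyclic AMP so made relaxes smooth muscle. BMP9 and BMP10 act through receptor serine kinases that phosphorylate SMAD1 and SMAD5, which bind GC-rich sites in DNA together with SMAD4, whose short preferred site is known as the SMAD box.

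The bases before the annotated transcription starts are shown for the genes whose levels differed most between groups, so that the letters of SMAD sites near each start can be read beside the levels. They are RefSeq promoter sequences of GRCm38.p6, printed 5′ to 3′ on the strand of the gene, and end before the first base that GENCODE M21 places in an exon of the gene. Capitals mark the letters GGCGCC (the GC-rich SMAD1/5 site) and GTCT or its reverse complement AGAC (the SMAD box). The Avpr1a sequence spans chr10:122448249-122448498 (plus strand), Gpbar1 chr1:74278350-74278549 (plus strand) and Vipr2 chr12:116077476-116077725 (plus strand). Adra1b has 2 annotated starts, preceded by chr11:43901238-43901487 and chr11:43836490-43836739 (minus strand).
Avpr1a: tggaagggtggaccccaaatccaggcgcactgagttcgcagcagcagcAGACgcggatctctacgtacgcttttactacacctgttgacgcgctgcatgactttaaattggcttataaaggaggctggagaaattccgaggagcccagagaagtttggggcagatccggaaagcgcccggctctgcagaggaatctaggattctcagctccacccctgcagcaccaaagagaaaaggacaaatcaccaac
Gpbar1: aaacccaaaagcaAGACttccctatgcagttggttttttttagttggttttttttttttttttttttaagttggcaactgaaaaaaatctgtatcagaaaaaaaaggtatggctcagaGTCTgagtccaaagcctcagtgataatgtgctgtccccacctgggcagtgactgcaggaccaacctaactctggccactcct
Adra1b upstream start: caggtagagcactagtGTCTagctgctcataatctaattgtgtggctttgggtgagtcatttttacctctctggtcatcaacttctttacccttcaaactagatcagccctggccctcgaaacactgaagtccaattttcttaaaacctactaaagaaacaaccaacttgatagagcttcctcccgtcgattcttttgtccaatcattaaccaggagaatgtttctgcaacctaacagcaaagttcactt
Adra1b inner start: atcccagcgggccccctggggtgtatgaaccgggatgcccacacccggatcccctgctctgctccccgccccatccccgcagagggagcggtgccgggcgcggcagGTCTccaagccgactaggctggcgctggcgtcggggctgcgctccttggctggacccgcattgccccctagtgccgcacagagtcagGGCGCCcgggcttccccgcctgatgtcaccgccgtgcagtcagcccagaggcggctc
Vipr2: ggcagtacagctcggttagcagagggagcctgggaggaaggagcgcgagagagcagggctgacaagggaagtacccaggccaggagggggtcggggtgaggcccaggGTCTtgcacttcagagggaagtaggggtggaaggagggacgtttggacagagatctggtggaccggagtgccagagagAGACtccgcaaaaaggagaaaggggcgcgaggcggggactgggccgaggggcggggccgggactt

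Promoter entries were found for 5 of the 8 members, the fifth being Adora2b, with 6 entries in all. Over the 250 bases before each start, GGCGCC was found at the inner Adra1b start, 57 bases before it, and at the Adora2b start, 61 bases before it, and in none of the other 4 entries. Among all 32851 promoter entries, 9.59% held these letters on either strand. SMAD box letters were found in all 6 entries, and in 82.9% of all entries. Avpr1a had the TATA box letters TATAAA, read on the gene's strand only, 137 bases before its start, as did 7.59% of all entries somewhere in that window. The cyclic AMP response element TGACGTCA was found in none of the 6 entries and in 1.55% of all. A match of letters is a description and not a binding site.

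In the transcript data, levels are normalised read counts as deposited. Changes are differences of log2(value + 1), stimulated minus control, with the standard error (SE) from limma fitted across 21743 genes. A gene is called when its p, adjusted over all these genes by Benjamini-Hochberg, is under 0.05. Under that rule 13.4% of all genes were called, 8.61% higher and 4.75% lower after stimulation. Of the 8 receptor genes, 3 were called higher (Avpr1a, Adra1b and Gpbar1), 1 was called lower (Vipr2) and 4 were not called (Agtr1a, Adra1a, Adra1d and Adora2b). The median change of the members was 0.03, against -0.03 over all genes. The groups did not overlap for 5 members, which include Adora2b, and did not overlap for 33.2% of all genes. In the fit with a replicate block, where 26.8% of all genes were called, 14.9% higher and the others lower, the members' calls were the same 3 higher and 1 lower. They were also the same under each other scaling tried.

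The libraries held an estimated 23.3 to 54.4 M reads, with stimulated replicate 3 the deepest. Smooth muscle markers were present in every library, with Acta2 at a mean of 109000 in stimulated samples and 31100 in controls, and Myh11 at 3600 in stimulated samples and 2680 in controls. Markers of other cell types were also present, and none of the markers listed for any type was at 0 in a library. Summed over 10 macrophage markers, the level ranged over 142750 to 215828 in stimulated samples and over 95927 to 165808 in controls, most of it from Lyz2. None of the 10 macrophage and none of the 10 endothelial markers was called by limma in the fit without a block. With the replicate block, limma called Mrc1 among the macrophage markers higher (0.55, adjusted p = 0.0126) and, among the endothelial markers, Kdr higher (1.55, 0.000843) and Cldn5 (-1.90, 0.00289), Tek (-0.72, 0.00165) and Egfl7 (-0.43, 0.0183) lower. None of the 8 epithelial and mesothelial markers was called without the block, and with it Sftpc was higher (0.83, limma adjusted p = 0.0196) and Krt18 (-1.40, 0.0275) and Msln (-0.79, 0.0409) lower. Each of the 10 endothelial markers peaked in replicate 2, among stimulated samples and among controls, with sums of 9243, 40666 and 15122 in stimulated replicates 1, 2 and 3 and of 11305, 41845 and 13198 in control replicates 1, 2 and 3. The smooth muscle sum over 8 markers ranged over 83819 to 178986 in stimulated samples and 34382 to 53248 in controls. Most of that sum came from Acta2, and 4 markers were called higher. Des was lower (-0.43) and Myh11 higher (0.41), and neither was called. With the replicate block Smtn was also called higher (0.57, limma adjusted p = 0.0012). The pericyte sum over 7 markers ranged over 30576 to 34758 in stimulated samples and 18677 to 19852 in controls (2 called higher). Most of it came from Pdgfrb. With the replicate block 3 pericyte markers were higher and 1 lower. Of 8 fibroblast markers 2 were called lower, with sums of 136456 to 269004 in stimulated samples and 147509 to 222979 in controls, mostly from Col1a1. The part of these markers' differences in the receptor levels was not tested. Which cells in the cultures held each receptor transcript was not measured, and in bulk RNA more cells of a type cannot be told apart from more RNA per cell.

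**Figure D1:**
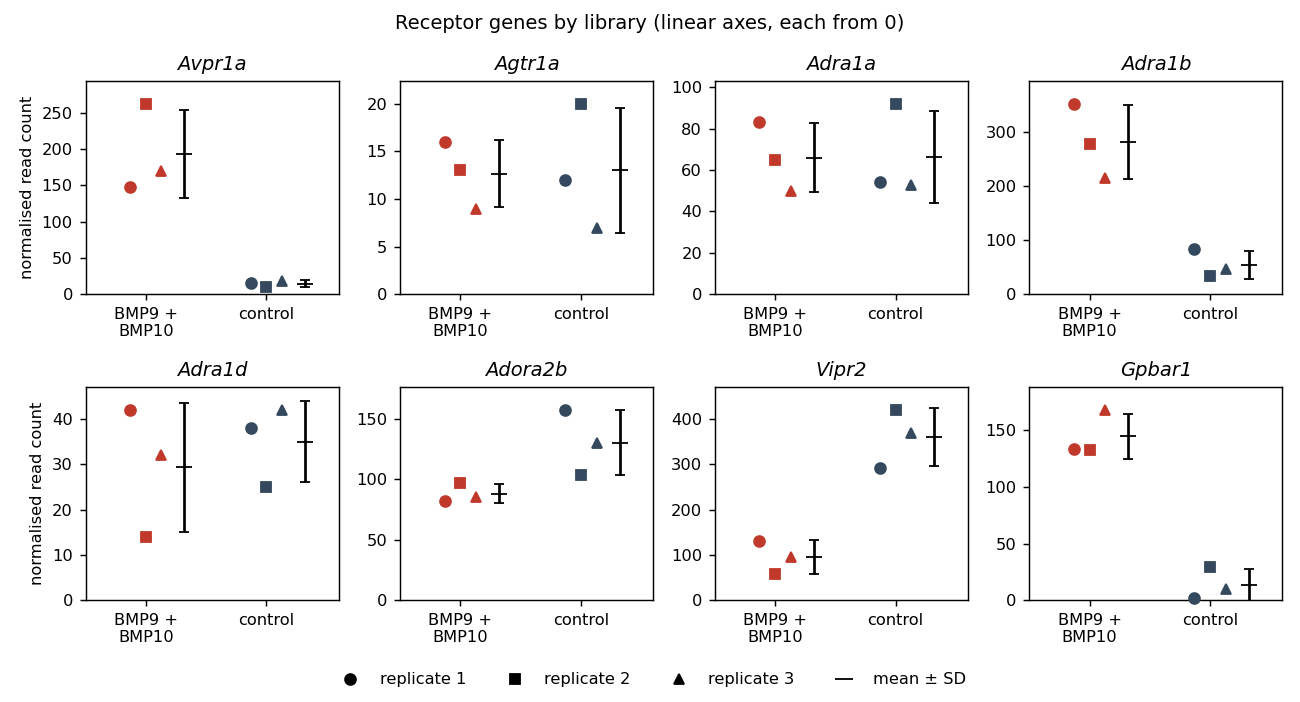
Normalised read counts (linear axes from 0) of the 8 receptor genes in each library, with stimulated libraries in red on the left of each panel and control libraries in dark blue on the right; symbols mark the replicate number and bars show the mean ± SD of 3 libraries. The groups stand apart for Avpr1a, Adra1b and Gpbar1 (higher after stimulation) and for Vipr2 and Adora2b (lower), and overlap for Agtr1a, Adra1a and Adra1d.

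Among the Gq-coupled constrictor receptors, Avpr1a, which mediates vascular contraction by vasopressin, stood highest above its controls. It lies on chromosome 10 from 122448499 to 122453452 (mm10, plus strand), with 2 exon blocks and 2.67 kb of exon sequence. Its normalised read counts were 148, 262 and 169 in stimulated replicates 1, 2 and 3 and 16, 10 and 18 in control replicates 1, 2 and 3. Every stimulated library was far above every control, and replicate 2 was the highest stimulated and the lowest control library. The means were 193 ± 60.7 in stimulated samples and 14.7 ± 4.16 in controls (SD, n = 3 each), a ratio of 13.2, and the change was 3.62 ± 0.32. Between libraries of the same replicate number the difference was 3.13, 4.58 and 3.16 for numbers 1, 2 and 3. Without both replicate 2 libraries the change was 3.15 ± 0.21 and was still called.

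The angiotensin II receptor gene Agtr1a, on chromosome 13 from 30336441 to 30382867 (plus strand), encodes the main pressor angiotensin receptor of rodents and was the lowest member. Its normalised read counts were 16, 13 and 9 in stimulated replicates and 12, 20 and 7 in control replicates 1 to 3. The groups overlapped, with both the highest and the lowest library among the controls. The change was 0.04 ± 0.45, on an estimated 7 to 20 reads per library.

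The 3 alpha-1 adrenoceptor genes, whose products answer noradrenaline and adrenaline, did not move alike. Adra1b, on chromosome 11 from 43774606 to 43901210 (minus strand, 5 exon blocks), had normalised read counts of 353, 278 and 215 in stimulated replicates 1 to 3 and of 84, 34 and 46 in control replicates 1 to 3. The lowest stimulated library was above the highest control. Its means were 282 ± 69.1 in stimulated samples and 54.7 ± 26.1 in controls (SD, n = 3 each), a ratio of 5.16, with a change of 2.42 ± 0.35. The difference within replicate numbers 1, 2 and 3 was 2.06, 2.99 and 2.20, so replicate 2 again differed most.

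Adra1a, on chromosome 14 from 66635251 to 66771168 (plus strand), had normalised read counts of 83, 65 and 50 in stimulated replicates 1 to 3 and of 54, 92 and 53 in control replicates 1 to 3. Its groups overlapped and its change was 0.01 ± 0.30. Adra1d, on chromosome 2 from 131545850 to 131562283 (minus strand), had normalised read counts of 42, 14 and 32 in stimulated replicates 1 to 3 and of 38, 25 and 42 in control replicates 1 to 3. Here too the groups overlapped, replicate 2 was the lowest library of each group, and the change was -0.34 ± 0.44. Exons of Gm14285 on the other strand cover 7.7% of the exon bases of Adra1d; the sources do not say whether reads were counted by strand, so that share of its level is uncertain. No exon of another gene covers the other 7 members.

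To set levels of different genes side by side, counts were divided by the kilobases of all annotated exons of each gene. Which transcripts the cells used was not measured, so shares and order between genes depend on the annotated lengths. Per kilobase of exon, the summed alpha-1 adrenoceptor level was 106 ± 26.2 in stimulated samples and 42.2 ± 8.65 in controls. Adra1b made up 76.7%, 84.7% and 73.8% of that sum in stimulated replicates 1 to 3 and 48.7%, 29.8% and 32.5% in control replicates 1 to 3. In stimulated samples Adra1b held a mean of 78.4% ± 5.66 and Adra1d 14.5% ± 6.18, whereas in controls Adra1b held 37.0% ± 10.2 and Adra1d 43.7% ± 7.98 (SD, n = 3 each). The remaining share, that of Adra1a, was 7.11% ± 0.523 in stimulated samples and 19.3% ± 10.4 in controls. By mean count, without division by length, Adra1a was above Adra1d in stimulated samples (66.0 and 29.3) and in controls (66.3 and 35.0).

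**Figure D2:**
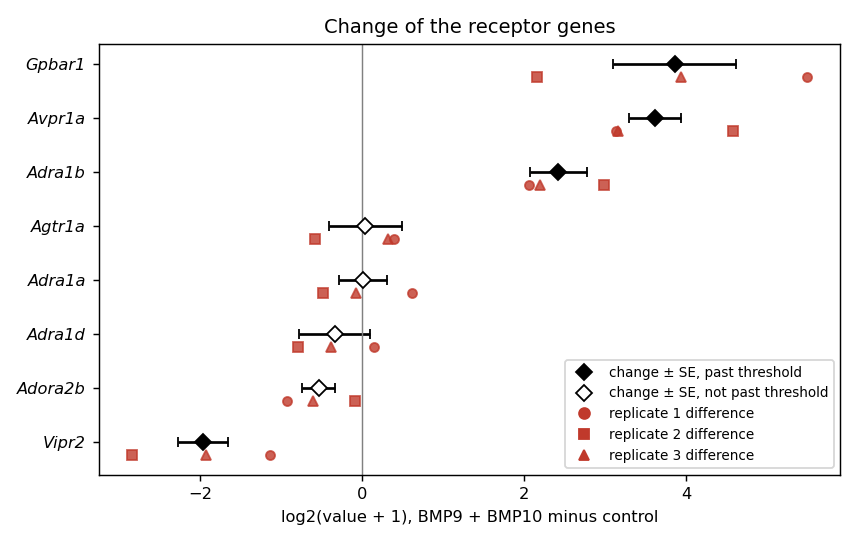
Change of each receptor gene in log2(value + 1), stimulated minus control (horizontal axis), with diamonds and bars for the limma change ± SE (filled where called across all genes) and red symbols for the difference between libraries of the same replicate number. Avpr1a, Adra1b and Vipr2 differed most in replicate 2 and Gpbar1 differed least there, at 2.16.

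Among the Gs-coupled dilator receptors, Vipr2 and Gpbar1 stood apart in opposite directions. Vipr2, the receptor for VIP and for the related peptide PACAP, lies on chromosome 12 from 116077726 to 116146261 (plus strand, 17 exon blocks). Its normalised read counts were 132, 58 and 96 in stimulated replicates 1 to 3 and 292, 420 and 369 in control replicates 1 to 3. The highest stimulated library was below the lowest control, and replicate 2 was the lowest stimulated and the highest control library. Means were 95.3 ± 37.0 in stimulated samples and 360.0 ± 64.4 in controls (SD, n = 3 each), a ratio of 0.265, and the change was -1.97 ± 0.31. Without both replicate 2 libraries it was -1.54 ± 0.22 and was still called.

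Gpbar1, the membrane receptor for bile acids, is known from macrophages among other cells. It lies on chromosome 1 from 74278550 to 74279624 (plus strand) and has 1 exon. Its normalised read counts were 134, 133 and 168 in stimulated replicates 1 to 3 and 2, 29 and 10 in control replicates 1 to 3. The stimulated libraries were close together and all above the controls, which spread widely around a low level. Means were 145 ± 19.9 in stimulated samples and 13.7 ± 13.9 in controls (SD, n = 3 each), a ratio of 10.6, and the change was 3.86 ± 0.76. The 3 control values stand for an estimated 2, 29 and 10 reads. The size of the change therefore rests on the controls: it was 3.00 ± 0.45 without control replicate 1 and 4.66 ± 0.55 without control replicate 2. The call was lost without control replicate 3 (3.94 ± 0.92) and without stimulated replicate 1 (3.92 ± 0.93), 2 (3.92 ± 0.92) or 3 (3.75 ± 0.94). Over the controls Gpbar1 was lowest in replicate 1 and highest in replicate 2. So was the summed level of 5 of the 6 marker lists (smooth muscle, endothelial, fibroblast, pericyte, and epithelial and mesothelial), the pericyte sum only over 18677 to 19852. Taken singly, all 10 endothelial and all 8 epithelial and mesothelial markers were highest in control replicate 2. So were only 3 of 8 smooth muscle, 5 of 8 fibroblast and 5 of 7 pericyte markers. Pdgfrb, the largest part of the pericyte sum, was lowest in control replicate 2 (13903). Among stimulated samples Gpbar1 was highest in replicate 3, as was the pericyte sum, most of which came from Pdgfrb. Of the 7 pericyte markers, however, 5 were highest in stimulated replicate 2. The smooth muscle, endothelial, fibroblast, and epithelial and mesothelial sums were highest in stimulated replicate 2, and the macrophage sum in stimulated replicate 1. The summed macrophage markers were 215828, 142750 and 190254 in stimulated replicates 1 to 3 and 165808, 157018 and 95927 in control replicates 1 to 3. The summed epithelial and mesothelial markers were 1758, 34530 and 15967 in stimulated replicates 1 to 3 and 3249, 31711 and 7751 in control replicates 1 to 3. The part of any of these cells in the Gpbar1 result was not tested.

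Adora2b, the low-affinity adenosine receptor, lies on chromosome 11 from 62248984 to 62266453 (plus strand, 2 exon blocks). Its normalised read counts were 82, 97 and 85 in stimulated replicates 1 to 3 and 157, 103 and 130 in control replicates 1 to 3. The groups did not overlap, though stimulated and control replicate 2 differed by little. The means were 88 ± 7.94 in stimulated samples and 130 ± 27.0 in controls (SD, n = 3 each), and the change of -0.54 ± 0.20 was not called, with or without the replicate block.

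**Figure D3:**
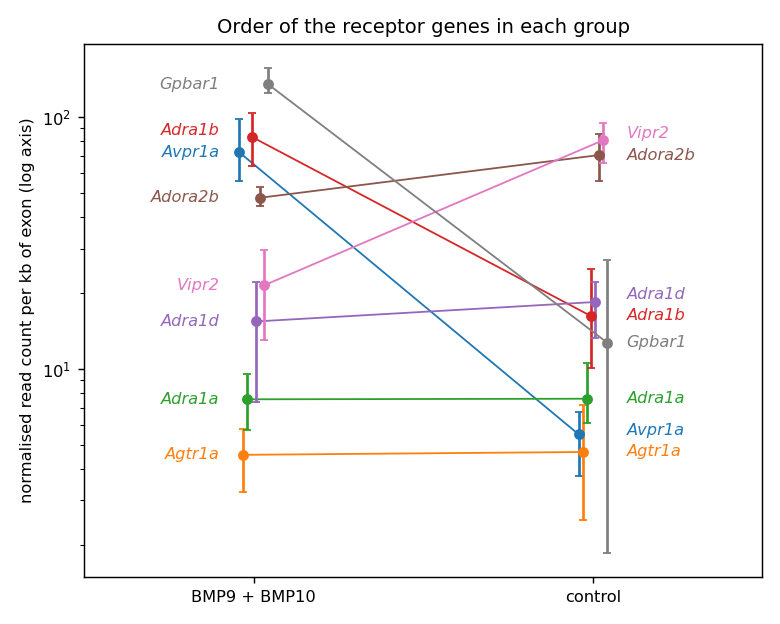
Normalised read count per kb of exon (vertical log axis) of the 8 receptor genes in stimulated samples (left) and controls (right), with points for the mean and bars from the lowest to the highest of 3 libraries. Gpbar1, Adra1b and Avpr1a lead in stimulated samples, and Vipr2 and Adora2b lead in controls.

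The order of the receptors within a group differed between groups. By mean count, Adra1b (282) and Avpr1a (193) were above Gpbar1 (145) in stimulated samples, and Vipr2 (360) and Adora2b (130) led in controls. The order per kb depends on the annotated exon lengths as well. Per kb of exon, Gpbar1 led in stimulated samples at 135 ± 18.5, followed by Adra1b at 83.4 ± 20.4, Avpr1a at 72.3 ± 22.7, Adora2b at 47.7 ± 4.3, Vipr2 at 21.4 ± 8.29, Adra1d at 15.4 ± 7.47, Adra1a at 7.56 ± 1.89 and Agtr1a at 4.55 ± 1.26. The ranges of neighbours in that order did not overlap between Gpbar1 and Adra1b, between Avpr1a and Adora2b, and between Adora2b and Vipr2, and overlapped for the other 4 neighbouring pairs. In controls, Vipr2 led at 80.7 ± 14.4 and Adora2b followed at 70.5 ± 14.6, with overlapping ranges. Below them, with a gap, came Adra1d at 18.4 ± 4.68, Adra1b at 16.2 ± 7.72, Gpbar1 at 12.7 ± 12.9, Adra1a at 7.60 ± 2.55, Avpr1a at 5.49 ± 1.56 and Agtr1a at 4.67 ± 2.35, with overlap between each neighbouring pair. The coefficient of variation of the members between libraries ran from 9.02% (Adora2b) to 48.4% (Adra1d) in stimulated samples and from 17.9% (Vipr2) to 101% (Gpbar1) in controls. By mean count over all libraries, the members lay between percentile 26.2 (Agtr1a) and percentile 52.2 (Vipr2) of all rows.

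For each called member, the 3 protein-coding genes with the nearest profile over the 6 libraries were taken out of 13825, by the root mean square difference of log2(value + 1) after centring each gene on its own control mean. For Avpr1a these included the homeobox gene Phox2a (a difference of 0.43) and the inhibitory SMAD gene Smad6 (0.44). Adra1b had Tmeff1 (0.32), Fgf12 (0.38) and Lax1 (0.40), and Vipr2 had Carmil3 (0.13), Rpp25 (0.21) and the sulfotransferase gene Chst1 (0.25). Carmil3 ran at normalised read counts of 62, 34 and 51 in stimulated replicates 1 to 3 and of 161, 194 and 192 in control replicates 1 to 3, with replicate 2 outermost in both groups as for Vipr2. The nearest genes to Gpbar1 were less close: Fgf21, a secreted metabolic growth factor (0.60), Fst, which encodes the activin antagonist follistatin (0.74), and Usp51 (0.77). All the genes named here were called by limma in the direction of their member (Fgf21 not without stimulated replicate 3, adjusted p = 0.0705, or control replicate 3, adjusted p = 0.0562). The difference between groups, on which the members were selected, enters this measure of likeness.

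The other genes of these pathways were taken from 9 lists holding 108 genes, of which 101 were tested. Of these, 14 were higher, 4 were lower and 83 did not pass, with a median change of -0.02 against -0.03 over all genes. With the replicate block, 26 were higher and 16 lower. With equal library totals 12 were higher and 11 lower, and that scaling moves the median of all genes to -0.20. Without the intensity trend 8 were higher and 2 lower, and of the genes named below Adra2a, Adcyap1r1, Chrm3, Prkca, Gna13, Adcy8, Grk2 and Grk5 lost their calls (limma adjusted p between 0.0511 and 0.132).

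**Figure D4:**
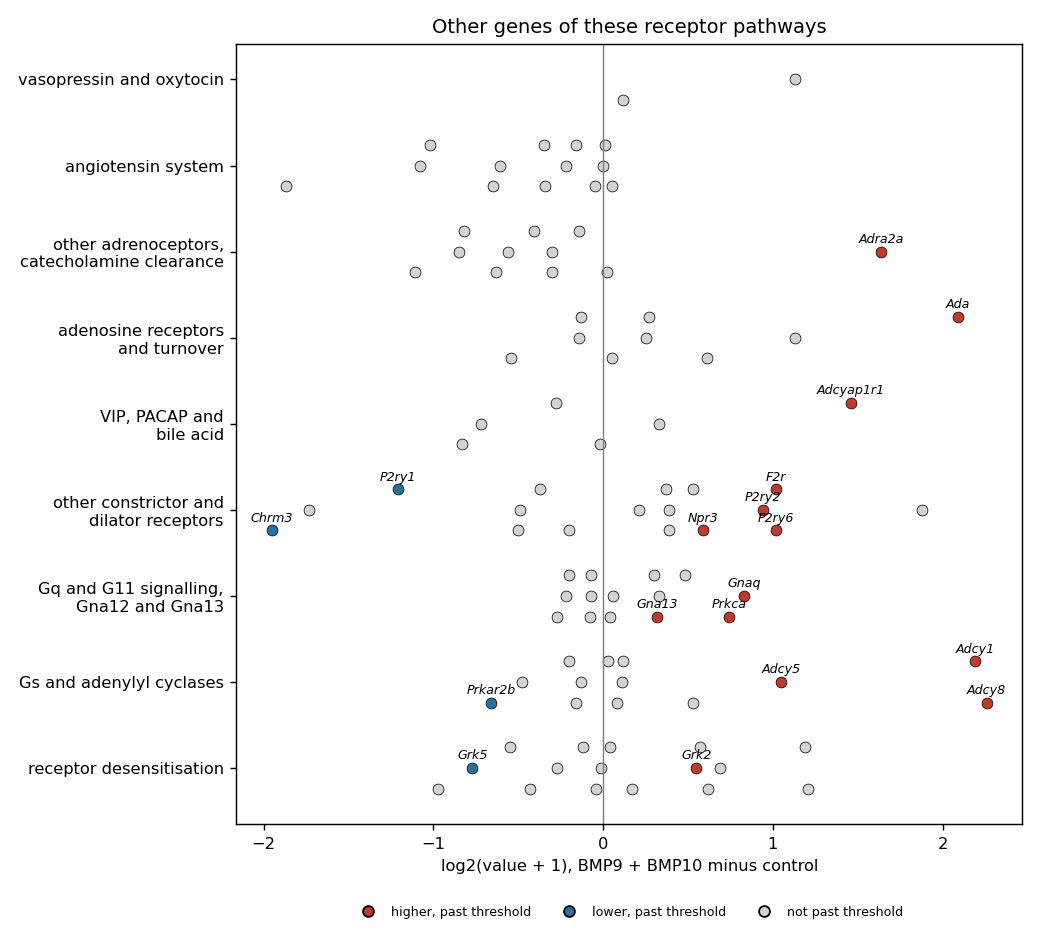
Change in log2(value + 1), stimulated minus control (horizontal axis), of 101 other genes of these pathways, with 1 point per gene, lists on the vertical axis and called genes coloured and named. Called genes are spread over the lists from adrenoceptors to desensitisation, while the vasopressin and oxytocin list and the angiotensin list have none in the fit without a block.

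Of the vasopressin and oxytocin list, only Oxtr and Lnpep of 6 genes were tested, and neither passed; the ligand genes Avp and Oxt and the receptor genes Avpr1b and Avpr2 were not analysed here. Oxtr, the oxytocin receptor gene, was at 5, 0 and 6 in stimulated replicates 1 to 3 and at 1, 0 and 1 in control replicates 1 to 3 (1.13 ± 0.84, limma adjusted p = 0.435). Of 13 genes on the angiotensin list, 1 of which (Agtpbp1, 0.01) is not a gene of that system, none passed (median change -0.34). With the replicate block none was higher and 3 were lower by limma: Mas1, Agtr2, which encodes the other main class of angiotensin II receptor (-1.08, adjusted p = 0.345 without and 0.0426 with the block), and Ace, the angiotensin converting enzyme (-0.34, 0.175 without and 0.0138 with the block). Mas1, a receptor gene for an angiotensin fragment, had the smallest p there, at 4, 1 and 1 in stimulated replicates 1 to 3 and 8, 8 and 11 in control replicates 1 to 3 (-1.87 ± 0.50, limma adjusted p = 0.0542; 0.0454 with the replicate block).

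Among 11 other adrenoceptor and catecholamine clearance genes, 1 rose and none fell, and with the replicate block 2 were lower, among them Maoa, which encodes a monoamine oxidase (-0.63, limma adjusted p = 0.00219). Adra2a, which encodes an alpha-2 adrenoceptor that couples to Gi, was at 151, 105 and 174 in stimulated replicates 1 to 3 and at 49, 27 and 66 in control replicates 1 to 3. The groups did not overlap, and the change was 1.64 ± 0.36 (limma adjusted p = 0.0283). That call was lost without stimulated replicate 1 (1.58, adjusted p = 0.0780) or 3 (1.48, 0.124) or control replicate 1 (1.71, 0.0815).

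Of 9 genes for adenosine receptors and turnover, 1 rose and none fell, and with the replicate block Adk, adenosine kinase, was also higher (0.27, limma adjusted p = 0.0395). Ada, adenosine deaminase, which degrades adenosine, was at 1254, 1176 and 1220 in stimulated replicates 1 to 3 and at 278, 287 and 287 in control replicates 1 to 3. The libraries of each group lay close together, and the change of 2.09 ± 0.09 (limma adjusted p = 0.000133) was called under all 16 alternatives. Of 6 tested genes on the VIP, PACAP and bile acid list, 1 rose and none fell. With the replicate block 2 were lower (Abcc4, -0.83, limma adjusted p = 0.00106, and Slco2a1, -0.28, 0.0420). Both encode transporters and not receptors, and Slco2a1 carries prostaglandins. Adcyap1r1, the PACAP receptor gene, was at 544, 265 and 623 in stimulated replicates 1 to 3 and 241, 143 and 123 in control replicates 1 to 3 (1.46 ± 0.38, limma adjusted p = 0.0469). Its call was lost with upper-quartile factors (1.38, adjusted p = 0.0616) and equal totals (1.29, 0.0627), without stimulated replicate 1 (1.32, adjusted p = 0.121) or 3 (1.23, 0.168) and without control replicate 1 (1.75, 0.0567), 2 (1.37, 0.108) or 3 (1.27, 0.151).

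Of 17 other constrictor and dilator receptor genes, 4 rose and 2 fell. The receptor genes for extracellular nucleotides P2ry2 (756 ± 65.2 in stimulated samples, 394 ± 26.9 in controls) and P2ry6 (946 ± 45.0 in stimulated samples, 472 ± 85.3 in controls) rose by 0.94 ± 0.11 and 1.02 ± 0.15 (limma adjusted p = 0.00355 and 0.0073). Npr3, the clearance receptor for natriuretic peptides, rose by 0.59 ± 0.09 (5620 ± 129 in stimulated samples, 3730 ± 325 in controls, limma adjusted p = 0.00707). These 3 were called under all 16 alternatives. Named after their values were seen, the other rise was F2r, a thrombin receptor gene (1.02 ± 0.15, limma adjusted p = 0.00764), and the falls were P2ry1, another nucleotide receptor gene (-1.21 ± 0.21, 0.0132), and Chrm3, a muscarinic receptor gene (-1.95 ± 0.48, 0.0395). P2ry1 was not called without control replicate 3 (-1.21, adjusted p = 0.0600) or without both replicate 2 libraries (-1.13, 0.0653), and exons on the other strand cover 23.1% of its exon bases. Chrm3 was not called without stimulated replicate 2 (-1.53, adjusted p = 0.0777) or 3 (-2.05, 0.120) or control replicate 1 (-1.69, 0.133) or 3 (-1.81, 0.135). With the replicate block, 6 of the 17 were higher and 3 lower. Called only with the block, and also named after their values were seen, were Gper1 (1.88, limma adjusted p = 0.00961), Bdkrb2 (0.39, 0.0394) and P2ry14 (-0.5, 0.00608).

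Downstream of the constrictor receptors, 3 of 14 listed signalling genes rose and none fell. The list holds Gq and G11 signalling genes and also Gna12 and Gna13, which encode alpha subunits of another G protein class, so 2 of the 3 belong to the Gq and G11 pathway. Gnaq, the alpha subunit of Gq, was at 5177, 5117 and 5638 in stimulated replicates 1 to 3 and 3150, 2747 and 3066 in control replicates 1 to 3 (0.83 ± 0.09, limma adjusted p = 0.0022), called under all 16 alternatives. Prkca, protein kinase C alpha, rose by 0.74 ± 0.14 (limma adjusted p = 0.0167; lost without stimulated replicate 3, 0.68 and adjusted p = 0.0846, or control replicate 1, 0.77 and 0.0584). Gna13 rose by 0.32 ± 0.08 (limma adjusted p = 0.0452), a call that held without stimulated replicate 1 and was lost without each other library (adjusted p between 0.0857 and 0.157) and with upper-quartile factors or equal totals (0.24 and 0.14). With the replicate block, 6 of the 14 rose and 1 fell.

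Downstream of the dilator receptors, 3 of 13 Gs and adenylyl cyclase genes rose and 1 fell, among them 3 cyclases. With the replicate block Adcy7 was also higher (0.53, limma adjusted p = 0.00600) and Gnas, the Gs alpha subunit, lower (-0.48, 0.0318). The groups overlapped for Gnas (limma adjusted p = 0.114 without the block). Exons on the other strand cover 22.0% of its exon bases, so that share of its level is uncertain. Adcy1, a calcium-stimulated adenylyl cyclase, was at 1005, 1498 and 1086 in stimulated replicates 1 to 3 and 218, 268 and 290 in control replicates 1 to 3. Its change of 2.19 ± 0.18 (limma adjusted p = 0.0011) was called under all 16 alternatives. Adcy5, a calcium-inhibited cyclase, rose by 1.05 ± 0.20 (limma adjusted p = 0.0171; lost without stimulated replicate 1 or 3 or control replicate 1 or 3, with changes of 0.97, 1.04, 0.90 and 1.03). Adcy8, named after its values were seen, rose by 2.26 ± 0.49 (limma adjusted p = 0.0269; lost without any stimulated replicate, at 2.42, 2.18 and 2.17, or control replicate 1, at 2.39). Prkar2b, a regulatory subunit of protein kinase A, fell by 0.66 ± 0.09 (834 ± 55.9 in stimulated samples, 1320 ± 51.8 in controls, limma adjusted p = 0.00587) and was called under all 16 alternatives.

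Of 16 genes on the receptor desensitisation list, 1 rose and 1 fell, with 6 higher and 3 lower under the replicate block. The list also holds Snx27, which returns receptors to the cell surface (-0.12, not called). The receptor kinase gene Grk2 was at 3130 ± 207 in stimulated samples and 2140 ± 163 in controls (0.55 ± 0.09, limma adjusted p = 0.0111; 0.49 and 0.0525 without control replicate 3). Grk5, a kinase of the same family, was at 1260 ± 328 in stimulated samples and 2110 ± 265 in controls (-0.77 ± 0.19, limma adjusted p = 0.0422). The call for Grk5 held without stimulated replicate 2 and was lost without each other library, where the change lay between -0.87 and -0.61.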

How the data were processed

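Total RNA from 3 stimulated and 3 control samples was turned into strand-preserving libraries of the whole transcriptome, per the labels' protocols. The submitters' processing notes name featureCounts 1.6.3, STAR 2.6.1d, Trimmomatic 0.38 as well as DESeq2 1.18.1, with no role given; mm10 is among the builds. How strand was handled in counting, and which annotation was used, is not given in the sources used here. The deposited values were treated as a score: the whole numbers skipped or doubled in each column show read counts multiplied by 1 factor per library (0.584 to 1.32) and rounded, so no count model was run. Genes were named from GENCODE M21 (21747 of 21785 rows).

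Of these, 21743 with a mean of at least 1 were fitted with limma 3.58.1 (R 4.3.3, intensity trend) on log2(value + 1), which understates changes of low genes, with a treatment term alone; p was adjusted by Benjamini-Hochberg. The fit was run on simulated data drawn independently for each library. Simulated libraries of the same replicate number shared no deviation, unlike the real ones, so that run does not show how the fit handles it. Members and lists were chosen with earlier results of these data known. Besides the 8 members, up to 3 called genes per list with the smallest p were named, or 1 where none was called, and the 3 nearest profiles of each called member, of which 1 is not reported here. Over 13185 genes, libraries sharing replicate number 1, 2 or 3 deviated together from their group means (correlations 0.747, 0.741 and 0.218). Stimulated replicate 1 and control replicate 3 correlated by 0.287, more than the third pair. All changes, SEs and calls come from the fit without a block unless the replicate block is named; that paired fit is given where it changes a call or a count, and no label explains the numbering. Alternatives were other scalings, filters and pseudocounts, no trend, the replicate block and leaving out libraries.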

Additional observations from a re-analysis of the deposited data

How the results depend on the processing

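The calls of Avpr1a, Adra1b and Vipr2 were kept, and Agtr1a, Adra1a, Adra1d and Adora2b were not called, under all 16 alternatives, and the call of Gpbar1 was lost without the intensity trend (3.86 ± 0.84) and in 4 of 6 fits without a library. Members called higher numbered 2 to 3 and members called lower 1 in fits leaving out a library. Uncalled members changed sign: Agtr1a under equal totals (-0.12) and upper-quartile factors (-0.03) and between -0.31 and 0.39 on leaving out a library, Adra1a likewise (-0.16, -0.07, and -0.17 to 0.27), and Adra1d between -0.66 and 0.10 on leaving out a library; the cause was not tested. Other listed genes called higher and lower numbered 14 and 4, against 26 and 16 with the replicate block, 8 and 2 without the trend and 12 and 11 with equal totals. Leaving out a library gave 8 to 14 higher and 1 to 4 lower, with 8 and 2 without stimulated replicate 3, 8 and 2 without control replicate 1 and 10 and 1 without control replicate 3. Over all genes, 1873 were called higher and 1032 lower, 3232 and 2605 with the replicate block, 983 and 627 without the trend, 1135 and 2265 with equal totals, and 1420 and 1352 with upper-quartile factors. The share of calls that were higher was 64.5%, against 33.4% with equal totals, 51.2% with upper-quartile factors and 55.4% with the block. Leaving out a library gave 659 to 1583 higher and 258 to 801 lower, with 659 and 258 without stimulated replicate 3, 838 and 326 without control replicate 1 and 851 and 312 without control replicate 3. The replicate block changed no call of a member. Agtr1a and the control level of Gpbar1 rest on few reads, which limits both.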
